A study of Mus musculus with 15 samples.

Results

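The genes described here are 33 genes of fibroblasts in the meninges and around blood vessels of the brain, most of which encode extracellular matrix or act on it. They were chosen by name, by matching each member's Entrez identifier to its mouse symbol in the deposited gene count table. All 33 were found among its 27179 identifiers, and all 33 were among the 16816 genes that passed the filter on low counts. Bulk RNA of dissected medial prefrontal cortex (mPFC), a region that regulates fear extinction, was sequenced from C57BL/6J mice. The groups were ABX-treated mice after fear extinction (4 libraries, called post ABX), mice without ABX after extinction (4, post non-ABX), ABX-treated mice before extinction (4, pre ABX) and mice without ABX before extinction (3, pre non-ABX). ABX is the field's usual abbreviation for an antibiotic mixture. The sources used here do not give its components, the age and sex of the mice or whether a library is 1 animal. The source of every sample is dissected tissue, although the labels' extraction text speaks of sorted cells.

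Fibroblasts of the leptomeninges and of the perivascular space secrete fibrillar collagens, basement membrane collagens and small leucine-rich proteoglycans. They also carry transporters for organic ions and neurotransmitters, and make retinoic acid and insulin-like growth factor 2, which act on neighbouring cortex and vessels. The forkhead factors Foxc1, Foxc2 and Foxd1 and the basic helix-loop-helix factor Twist1 mark the mesenchymal lineages from which such cells derive. Several members are not particular to fibroblasts: endothelial cells and pericytes also make Col4a1 and Col4a2, oligodendrocytes and choroid plexus make Ptgds, and border macrophages and lymphatic endothelium carry Lyve1.

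Of the 33 members, 24 had an upstream window in the RefSeq table of GRCm38.p6, and 4 of these windows are shown. Col15a1, Ogn and Col6a2 are shown because each was among the 3 members of smallest p in a comparison, and Igfbp2 because it has the highest transcript GC content of the members. Each is the 250 bases before a start listed in that table, written 5′ to 3′ on the gene's strand, with capitals for matches on either strand to the GC box (GGGCGG), to the CCAAT box, to the TATA box (TATAAA) or to the AP-1 site (TGACTCA).
Col15a1 (chr4:47207762-47208011, plus strand): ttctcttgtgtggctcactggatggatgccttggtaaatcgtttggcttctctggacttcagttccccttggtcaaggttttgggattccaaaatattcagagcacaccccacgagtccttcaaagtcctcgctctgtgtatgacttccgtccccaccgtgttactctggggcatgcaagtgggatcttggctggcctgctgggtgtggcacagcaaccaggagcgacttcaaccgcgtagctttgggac
Ogn (chr13:49607765-49608014, plus strand): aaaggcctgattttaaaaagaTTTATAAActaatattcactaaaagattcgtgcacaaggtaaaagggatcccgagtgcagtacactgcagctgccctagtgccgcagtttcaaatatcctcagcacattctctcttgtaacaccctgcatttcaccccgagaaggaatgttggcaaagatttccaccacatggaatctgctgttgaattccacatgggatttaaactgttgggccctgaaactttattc
Col6a2 (chr10:76623631-76623880, minus strand): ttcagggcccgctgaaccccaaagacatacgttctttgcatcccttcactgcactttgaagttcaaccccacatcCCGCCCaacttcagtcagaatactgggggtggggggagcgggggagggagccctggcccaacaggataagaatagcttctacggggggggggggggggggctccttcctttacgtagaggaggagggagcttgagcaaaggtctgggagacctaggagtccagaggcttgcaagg
Igfbp2 (chr1:72824230-72824479, plus strand): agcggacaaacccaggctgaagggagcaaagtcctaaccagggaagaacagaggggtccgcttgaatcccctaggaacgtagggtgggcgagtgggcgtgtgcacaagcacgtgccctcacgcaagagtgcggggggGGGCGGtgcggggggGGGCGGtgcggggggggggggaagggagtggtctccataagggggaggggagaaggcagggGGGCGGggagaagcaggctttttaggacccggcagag
The Igfbp2 window had a GC content of 67.2% and 3 matches to GGGCGG. The Ogn window had a GC content of 42.0%, and its capitals hold 2 overlapping matches to TATAAA, on opposite strands. In the Col6a2 window GGGCGG occurred on the other strand, so it reads as the reverse complement, and the Col15a1 window held none of the 4 motifs. The gene coordinates of Col15a1 start at 47207655, before this window. The window thus lies inside the gene as those coordinates draw it, and the motif result does not describe the stretch before that start. GGGCGG was found in the RefSeq windows of 11 of the 24 members and in 32.7% of all 32851 windows, and CCAAT in those of 11 and in 33.8%. TATAAA was found in those of 3 (Col3a1, Twist1 and Ogn) and in 12.4% of windows, and TGACTCA in those of 3 (Igfbp2, Ptgds and Col6a1, over all windows listed for a gene) and in 4.46%. For all 4 motifs a member was counted if any window listed for it held the motif. The percentages are of single windows, so members with several windows had more chances and the shares are not like for like.

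Levels are given in CPM, the usual counts-per-1000000 scale, adjusted by TMM (trimmed mean of M values) factors, with total counts of 44254906 to 57929503 per library. Per kilobase of the longest transcript, mean levels over the 15 libraries were led by Ptgds, which encodes a prostaglandin D synthase, at 678 CPM per kb. Mgp, an inhibitor of calcification in matrix, followed at 32.2, Igfbp2 at 17.1 and Igf2 at 16.1 CPM per kb. The lowest were Twist1 at 0.269 and Foxd1 at 0.162 CPM per kb, with 14 to 33 and 17 to 79 counts per library, so their values carry the most counting error. The 5064-base transcript used for Foxd1 is longer than its RefSeq gene (98354245 to 98356705). The order of Foxd1 and Twist1 per kb thus depends on the annotation. The 5844-base transcript used for Foxc1 is also longer than its RefSeq gene (31806646 to 31810635). Igf2 shares 3596 exon bases with a same-strand readthrough transcript, Gm49394, and its counts may be split between them. Other fibroblast markers were present at varied levels: Pdgfra, which oligodendrocyte precursors also express, ran at 62.2 to 87.5 CPM and Dpt, a dermatopontin gene, at 0.113 to 0.391 CPM, and Dpep1 had at most 1 count in any library. As for the tissue label, cortical neuron genes were high, with Camk2a at 4184 to 5550 CPM and the vesicular glutamate transporter gene Slc17a7 at 1177 to 1809 CPM.

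The members did not vary independently between libraries of a group. Relative to each gene's mean over all 15 libraries, the median member ratio in post ABX replicates 1 to 4 was 1.01, 0.884, 1.03 and 1.02, and in post non-ABX replicates 1 to 4 it was 1.34, 1.19, 1.22 and 0.907. In pre ABX replicates 1 to 4 it was 0.883, 0.823, 0.801 and 1.16, and in pre non-ABX replicates 1, 3 and 4 it was 1.01, 1.13 and 0.790. Within its own group, post non-ABX replicate 4 had the lowest value for 26 of 33 members, pre non-ABX replicate 4 for 30 and post ABX replicate 2 for 19. The highest value of the group lay in post non-ABX replicate 1 for 22 members, in pre ABX replicate 4 for 23 and in pre non-ABX replicate 3 for 21.

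**Figure D1:**
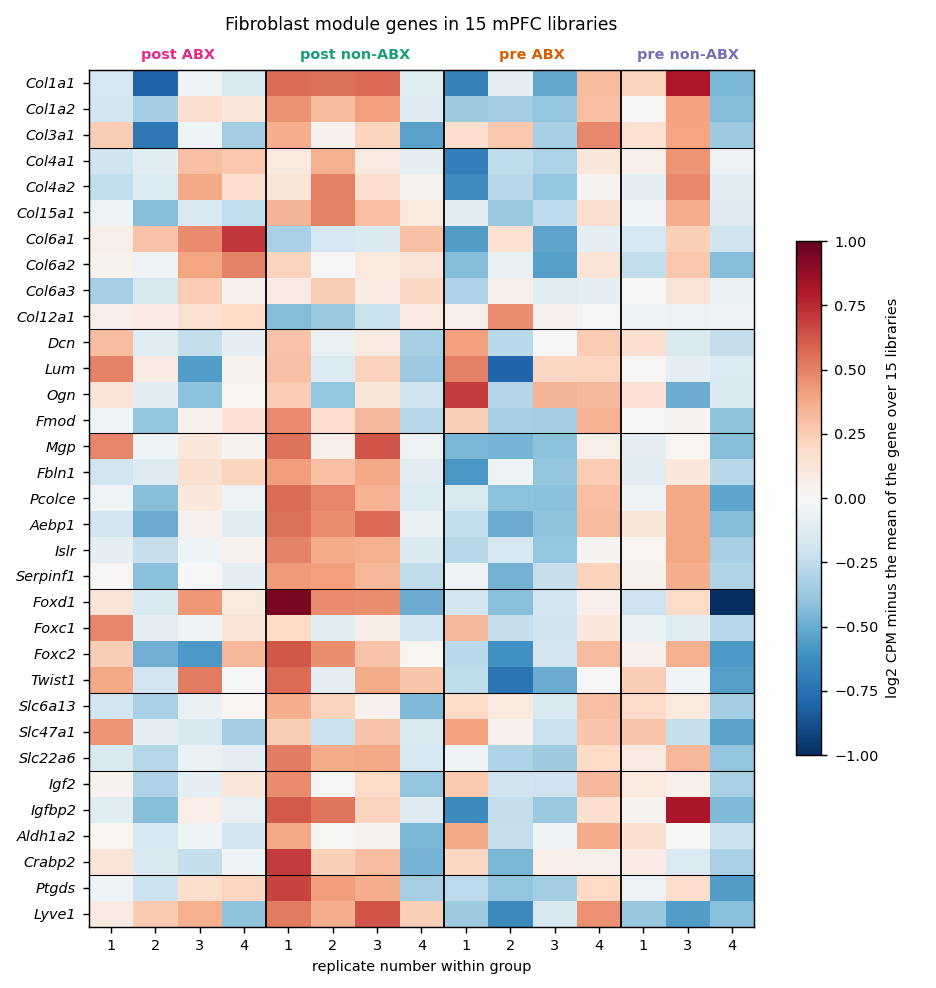
Heat map of the 33 members (rows, ordered by role) in the 15 libraries (columns, by group), as log2 CPM minus the gene's mean over all libraries; colours saturate at -1 and 1. Post non-ABX replicates 1 to 3 are red for most members, while post non-ABX replicate 4 and pre non-ABX replicate 4 are blue for most.

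Comparing ABX with non-ABX mice after extinction asks how these genes differed with treatment once extinction had taken place. In post ABX libraries 28 of 33 members had a negative log2 fold change, against 48.4% of all genes tested, with a member median of -0.23 and an all-gene median of 0.01. None passed: edgeR's quasi-likelihood test with Benjamini-Hochberg adjustment called 0 of 33 at an adjusted p under 0.05, where it called 0.0178% of all genes. At an unadjusted p under 0.05, 5 members were lower (15.2%, against 6.83% of all genes) and 2 higher (6.06%, against 6.45%). DESeq2 and voom with sample quality weights each called Col15a1 alone, where they called 1.17% and 1.82% of all genes. In bulk RNA, fewer cells of a type and less RNA per cell cannot be told apart.

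Col15a1 (chromosome 4, 47207655 to 47313167, GRCm38), which encodes the alpha chain of collagen XV at the border of basement membrane and interstitial matrix, had the smallest p. It was at 9.09, 6.98, 8.42 and 7.92 CPM in post ABX libraries, against 11.8, 13.2, 11.5 and 10.04 CPM in post non-ABX libraries. It was the only member whose post ABX libraries all lay below the post non-ABX ones, as did those of 6.36% of all genes. Its log2 change was -0.52 (SE 0.13; edgeR, adjusted p = 0.173), and with any 1 library left out the adjusted p ran from 0.115 to 0.553. Before extinction Col15a1 was at 8.72, 7.26, 7.79 and 10.5 CPM in ABX libraries and at 9.17, 12.1 and 8.58 CPM in non-ABX libraries, which overlapped, with a log2 change of -0.22 (SE 0.14; edgeR, adjusted p = 0.407).

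The fibrillar collagens and the matrix and collagen-processing genes had negative fold changes after extinction. Col1a1 (chromosome 11, 94936224 to 94953042), the main chain of collagen I, was at 6.36, 4.12, 6.99 and 6.46 CPM in post ABX libraries, against 10.6, 10.5, 10.6 and 6.59 CPM in post non-ABX libraries. Post non-ABX replicates 1 to 3 lay close together and above all post ABX libraries, while replicate 4 lay within the post ABX range. The log2 fold change of Col1a1 was -0.68 (SE 0.26; edgeR, adjusted p = 0.309). All 3 fibrillar collagen genes (Col1a1, Col1a2 and Col3a1) had negative values, -0.68 to -0.23. Aebp1, whose product binds collagen and promotes its assembly, was at 22.7, 18.3, 26.6 and 23.7 CPM in post ABX libraries, against 37.7, 35.6, 38.3 and 24.6 CPM in post non-ABX libraries. Post non-ABX replicate 4 again lay inside the post ABX range, and the log2 change was -0.58 (SE 0.20; edgeR, adjusted p = 0.274). All 6 matrix or collagen-processing genes (Mgp, Fbln1, Pcolce, Aebp1, Islr and Serpinf1) had negative values, with a median of -0.37.

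Among the collagens, Col12a1, Col6a1 and Col6a2 had values of the opposite sign. Col12a1 (chromosome 9, 79598987 to 79721141), a collagen that lies along collagen I fibrils, was at 41.8, 42.1, 44.4 and 45.9 CPM in post ABX libraries, against 29.6, 30.8, 34.3 and 42.5 CPM in post non-ABX libraries. Post non-ABX replicate 4 overlapped the post ABX libraries and the other replicates lay below them, for a log2 change of 0.35 (SE 0.11; edgeR, adjusted p = 0.262). Col6a1 (chromosome 10, 76708792 to 76726044), a chain of the beaded-filament collagen VI, was at 43.8, 51.3, 58.3 and 68.5 CPM in post ABX libraries, against 33.6, 37.4, 38.02 and 51.4 CPM in post non-ABX libraries. The groups overlapped through post non-ABX replicate 4, and the log2 change was 0.47 (SE 0.18; edgeR, adjusted p = 0.307). Col6a2 and Col6a3, the partner chains, had log2 fold changes of 0.13 and -0.19.

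**Figure D2:**
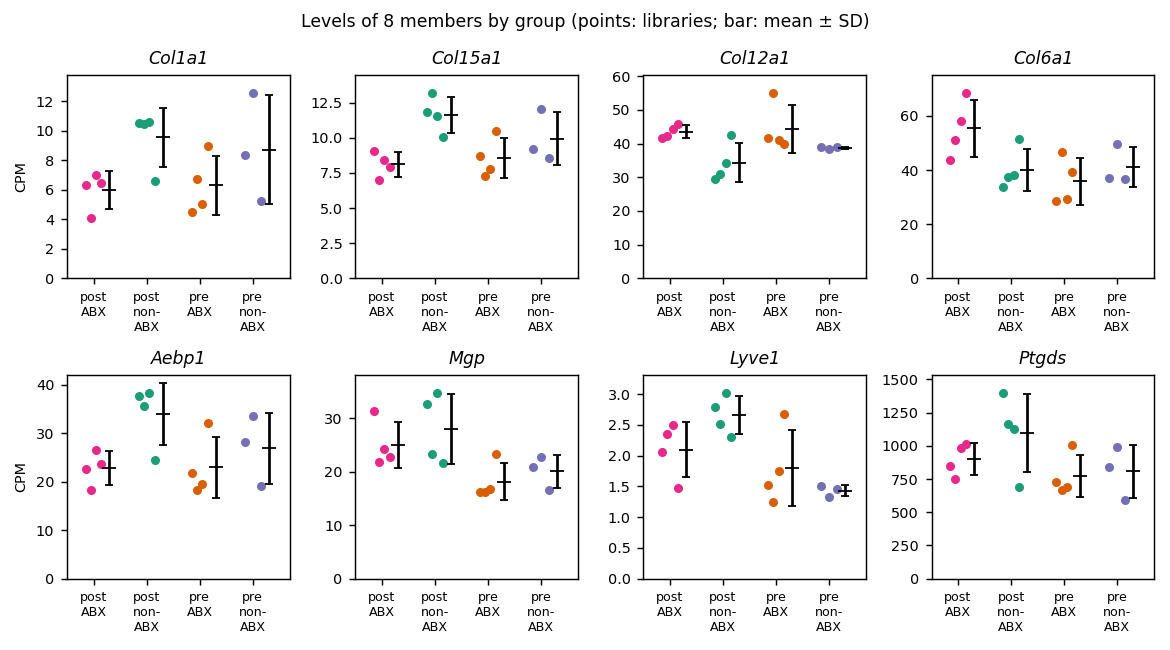
CPM of 8 members (vertical axes from 0) in post ABX, post non-ABX, pre ABX and pre non-ABX libraries; points are libraries, and bars are mean ± SD (n = 4, 4, 4 and 3). Col15a1 in post ABX libraries (9.09, 6.98, 8.42 and 7.92 CPM) lies below all post non-ABX libraries (11.8, 13.2, 11.5 and 10.04 CPM), while groups overlap after extinction in the other 7 genes.

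The same comparison was made before extinction. In pre ABX libraries 19 of 33 members had a negative log2 fold change, against 48.5% of all genes, with a member median of -0.10 and an all-gene median of 0.01. That median took the opposite sign, 0.08, without pre non-ABX replicate 3, and was -0.23 without pre ABX replicate 4 or without pre non-ABX replicate 4. Here edgeR called 0 of 33 (0.00595% of all genes), and DESeq2 (0.0771%) and voom (0.00595%) also called 0. At an unadjusted p under 0.05, 2 members were lower (6.06%, against 11.4% of all genes) and 1 higher (3.03%, against 4.57%).

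The 2 lower members were the basement membrane collagen genes Col4a1 and Col4a2 (chromosome 8, 11198423 to 11312889, and chromosome 8, 11312805 to 11449287), which are transcribed in opposite directions from adjoining starts and encode the chains of the main collagen IV trimer. Col4a1 was at 37.99, 51.05, 48.8 and 65.8 CPM in pre ABX libraries, against 62.96, 82.6 and 58.5 CPM in pre non-ABX libraries, for a log2 change of -0.42 (SE 0.17; edgeR, adjusted p = 0.311). Col4a2 was at 52.1, 66.3, 61.6 and 82.3 CPM in pre ABX libraries, against 75.2, 112.4 and 74.7 CPM in pre non-ABX libraries, for a log2 change of -0.41 (SE 0.18; edgeR, adjusted p = 0.312). In both genes pre ABX replicate 4 lay within the non-ABX range and the other pre ABX libraries lay below it. After extinction Col4a1 was at 52.9, 56.4, 75.2 and 73.3 CPM in ABX libraries and 65.1, 77.96, 64.7 and 57.2 CPM in non-ABX libraries, with a log2 change of -0.04 (SE 0.16; edgeR, adjusted p = 0.918). Col4a2 was then at 67.9, 73.3, 104.9 and 90.7 CPM in ABX libraries and 87.4, 114.3, 90.6 and 82.4 CPM in non-ABX libraries, with a log2 change of -0.15 (SE 0.17; edgeR, adjusted p = 0.655).

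The small leucine-rich proteoglycans, which bind collagen fibrils and set their spacing, had positive values before extinction in 4 of 4 (Dcn, Lum, Ogn and Fmod), 0.12 to 0.45 on the log2 scale. Ogn, which encodes osteoglycin, was at 18.6, 9.35, 14.4 and 14.3 CPM in pre ABX libraries, against 12.7, 8.11 and 10.3 CPM in pre non-ABX libraries. Pre ABX replicate 2 lay inside the non-ABX range and the other pre ABX replicates above it, for a log2 change of 0.45 (SE 0.21; edgeR, adjusted p = 0.313). Dcn, the gene of decorin, was at 20.7, 12.9, 15.6 and 18.5 CPM in pre ABX libraries and 17.5, 14.1 and 13.2 CPM in pre non-ABX libraries, which overlapped, with a log2 change of 0.18 (SE 0.17; edgeR, adjusted p = 0.553). After extinction Ogn was at 12.5, 10.6, 8.603 and 11.6 CPM in ABX libraries and 13.6, 8.75, 12.4 and 9.92 CPM in non-ABX libraries, with a log2 change of -0.05 (SE 0.19; edgeR, adjusted p = 0.9203). Dcn was then at 19.3, 14.3, 13.2 and 14.6 CPM in ABX libraries and 19.04, 14.9, 16.5 and 12.3 CPM in non-ABX libraries, with a log2 change of -0.03 (SE 0.16; edgeR, adjusted p = 0.934). Col12a1 was the only member whose pre ABX libraries, at 41.5, 55, 41.1 and 39.99 CPM, all lay above the pre non-ABX ones, at 38.98, 38.4 and 38.8 CPM, as did those of 3.62% of all genes.

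Members with other roles gave no difference that passed in either ABX comparison. Igf2, a growth factor, was at 76.3, 60.3, 70.3 and 80.9 CPM in post ABX libraries and 103.7, 74.3, 85.2 and 56.8 CPM in post non-ABX libraries, and at 89.4, 65.3, 64.7 and 93.4 CPM in pre ABX and 80.01, 77.5 and 59.7 CPM in pre non-ABX libraries. Igfbp2, which binds such growth factors, was at 19.8, 15.97, 22.5 and 20.4 CPM in post ABX libraries and 32.9, 31.2, 25.01 and 19.7 CPM in post non-ABX libraries. Before extinction Igfbp2 was at 13.8, 18.2, 16.6 and 24.1 CPM in ABX libraries and 21.9, 37.8 and 15.8 CPM in non-ABX libraries, where pre non-ABX replicate 3 stood highest of all 15. Its log2 changes were -0.47 (SE 0.23; edgeR, adjusted p = 0.384) after and -0.47 (SE 0.25; edgeR, adjusted p = 0.339) before extinction. Aldh1a2, which makes retinoic acid, was at 12.7, 11.1, 12.2 and 11 CPM in post ABX libraries and 16.4, 12.7, 12.8 and 9.13 CPM in post non-ABX libraries, and at 16.4, 10.7, 12.3 and 16.2 CPM in pre ABX and 14.1, 12.6 and 10.8 CPM in pre non-ABX libraries. Slc6a13, a GABA and taurine transporter, was at 13.3, 12.1, 14.4 and 15.4 CPM in post ABX libraries and 19.5, 17.7, 15.6 and 11.1 CPM in post non-ABX libraries, and at 17.3, 16.3, 13.7 and 18.7 CPM in pre ABX and 17.3, 16.2 and 11.99 CPM in pre non-ABX libraries. In all 4 genes the ABX and non-ABX libraries overlapped at both stages. Foxc1, a transcription factor needed for the meninges to form, was at 5.34, 3.58, 3.71 and 4.17 CPM in post ABX libraries and 4.36, 3.54, 4 and 3.35 CPM in post non-ABX libraries, and at 4.76, 3.23, 3.31 and 4.09 CPM in pre ABX and 3.64, 3.499 and 3.15 CPM in pre non-ABX libraries. Col6a3, the third chain of collagen VI, was at 3.72, 4.198, 5.601 and 4.83 CPM in post ABX libraries and 4.96, 5.58, 4.99 and 5.405 CPM in post non-ABX libraries, and at 3.78, 4.9, 4.31 and 4.41 CPM in pre ABX and 4.62, 5.14 and 4.48 CPM in pre non-ABX libraries. Foxc1 and Col6a3 libraries also overlapped between treatments at both stages.

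The other 13 members are given by their range over the 15 libraries and their averaged log2 fold change, ABX over non-ABX. Of the collagens, Col1a2 ran at 16.7 to 30.7 CPM (-0.26) and Col3a1 at 3.03 to 6.89 CPM (-0.08). The proteoglycan genes Lum (lumican) and Fmod (fibromodulin) ran at 1.83 to 4.49 CPM (0.10) and 18.2 to 33.4 CPM (-0.06). Among matrix and processing genes, Fbln1, which encodes fibulin 1, ran at 6.66 to 13.3 CPM (-0.15) and Pcolce, an enhancer of procollagen cleavage, at 5.92 to 12.5 CPM (-0.28). Islr, the gene of the surface protein meflin, ran at 15.2 to 28 CPM (-0.31) and Serpinf1, which encodes pigment epithelium-derived factor, at 7.88 to 14.7 CPM (-0.27). All 4 were below 0. The transcription factor genes Foxc2 and Twist1 ran at 0.944 to 2.21 CPM (-0.29) and 0.254 to 0.623 CPM (-0.19). The transporter genes Slc47a1 and Slc22a6, for organic cations and organic anions, ran at 7.94 to 15.6 CPM (0.10) and 10.9 to 20.4 CPM (-0.30). Crabp2, a retinoic acid binding protein, ran at 2.68 to 6.04 CPM (-0.11).

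Negative values both after and before extinction were found in 17 of 33 members, against 3 (Col12a1, Foxc1 and Lum) positive in both. The matching share of all genes was not computed, and the members did not vary independently. These counts therefore cannot be set against a background. Averaged over the stages, 24 of 33 members were negative (47.5% of all genes), with a member median of -0.15. In this average edgeR called 0 members (0.624% of all genes). At an unadjusted p under 0.05, 7 members were lower (21.2%, against 17.8% of all genes) and 1, Col12a1, higher (3.03%, against 12.8%). Values of smallest p were -0.37 (SE 0.10; edgeR, adjusted p = 0.0634) for Col15a1, 0.27 (SE 0.08; edgeR, adjusted p = 0.071) for Col12a1 and -0.57 (SE 0.19; edgeR, adjusted p = 0.08003) for Col1a1. DESeq2 called these 3 and Islr, Aebp1 and Igfbp2, 6 members in all (18.2%, against 13% of all genes), and voom called Col15a1, Col12a1 and Aebp1 (9.09%, against 5.36%). Without pre ABX replicate 4 edgeR called 7 members (21.2%, against 18.2% of all genes), and without pre non-ABX replicate 4 it called 5 (15.2%, against 6.2%).

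The averaged ABX difference moved with GC content. The members' longest transcripts had a median GC content of 54.7%, against 48.7% over the 21572 genes of the table with a transcript, and ran from 36.3% in Ogn to 62.1% in Igfbp2. In the average, 5 of the 28 members above that all-gene median had a positive log2 fold change (median -0.17), against 4 of the 5 below it (median 0.10), namely Col12a1, Dcn, Lum and Ogn but not Lyve1. When each library's trend with GC content was removed, the member median became -0.03, and 13 of the 28 were positive. Igfbp2 then had a log2 change of -0.09, in place of -0.47, and Col4a2 turned to 0.02, in place of -0.28. Col1a1 had -0.30 in place of -0.57, Col15a1 -0.18 in place of -0.37, and Col12a1 0.24 in place of 0.27. After extinction alone the member median was -0.14 with the trend removed, and before extinction it was 0.06. With the trend removed edgeR called 0 members in these 3 comparisons, where it called 4.2%, 0.385% and 0.00652% of all genes in the average, after and before extinction.

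**Figure D3:**
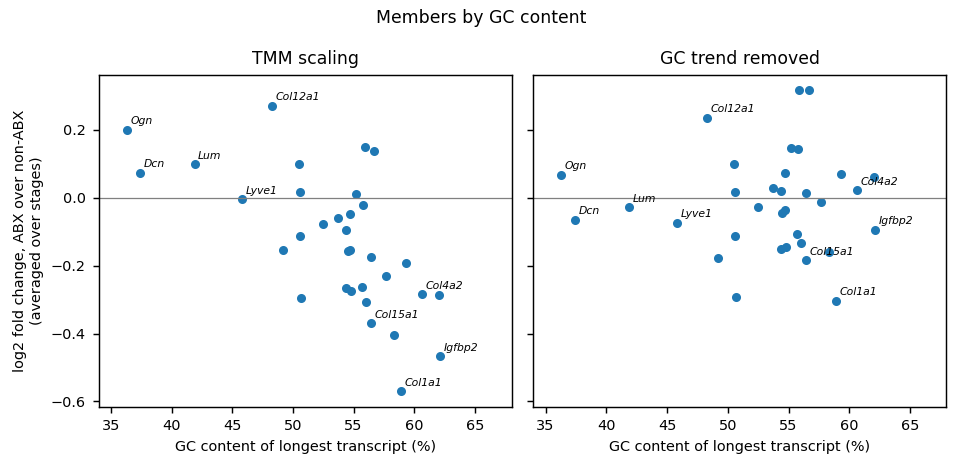
Log2 fold change of ABX over non-ABX, averaged over stages (vertical axis), against GC content of the longest transcript in percent, for the 33 members, with TMM scaling (left) and with each library's GC trend removed (right). The members of high GC content lie lower on the left (Igfbp2 -0.47, Col1a1 -0.57) than on the right (Igfbp2 -0.09, Col1a1 -0.30).

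Markers of the vessel wall were read in the same ABX average. All 16 brain endothelial markers had negative averaged values (median -0.36), against 47.5% of all genes. Of these edgeR called 4, against 0.624% of all genes in either direction. The 4 that fell were Flt1 and Kdr, receptors of vascular endothelial growth factor, the receptor gene Tie1, and Ly6c1, with log2 changes of -0.77 to -0.41. The sum of the 16 endothelial markers was 298.6 to 411.4 CPM in post ABX and 417.8 to 432.6 CPM in post non-ABX libraries, and 276.5 to 404.4 CPM in pre ABX and 405.5 to 457.3 CPM in pre non-ABX libraries, with no overlap after extinction and none before. Of 16 pericyte and smooth muscle markers 14 were negative (median -0.39), against the same 47.5%. Here edgeR called 5, all lower, against the same 0.624%. They were the contractile genes Acta2, Tagln, Myh11 and Des, and Ndufa4l2, with log2 changes of -0.90 to -0.54. The sum of these 16 markers was 117.5 to 148.0 CPM in post ABX and 151.7 to 170.1 CPM in post non-ABX libraries, and 106.9 to 143.3 CPM in pre ABX and 142.1 to 169.3 CPM in pre non-ABX libraries. Acta2 was at 6.75, 3.56, 3.63 and 5.85 CPM in post ABX libraries, against 8.28, 9.64, 9.58 and 9.69 CPM in post non-ABX libraries, and its averaged log2 change was -0.90 (SE 0.15; edgeR, adjusted p = 0.0313). These 9 calls depended on the libraries: each was lost in 7 to 12 of 15 fits with 1 library left out (highest edgeR adjusted p = 0.171), and all 9 were kept without pre ABX replicate 4 and without pre non-ABX replicate 4. With the GC trend removed Ndufa4l2 was lost (edgeR adjusted p = 0.0518), while calls numbered 10 of 16 endothelial and 6 of 16 pericyte and smooth muscle markers, against 4.2% of all genes. DESeq2 called 10 and 9 of them (13% of all genes), and voom 12 and 8 (5.36%). Of 25 other fibroblast markers tested, 13 were negative in the average (median -0.001) and edgeR called 0. At an unadjusted p under 0.05, 4 were higher (16%, against 12.8% of all genes) and 5 lower (20%, against 17.8%). Calls numbered 1 with the GC trend removed, 4 under DESeq2 and 3 under voom. In post ABX replicate 2, pre ABX replicate 2 and post non-ABX replicate 4 the most members were lowest of the group. There the endothelial sum was also the group's lowest, at 298.6, 276.5 and 417.8 CPM. In pre ABX replicate 4 and pre non-ABX replicate 3, where the most members were highest, the sum was the group's highest. In post ABX replicate 3 and post non-ABX replicate 1, where the most members were also highest, it was not (328.9 and 428.0 CPM). In pre non-ABX replicate 4, 30 of 33 members were lowest. Its sum was 441 CPM, between those of the other libraries of the group (406 and 457 CPM). The part of vessel wall cells in the members' values was not tested.

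**Figure D4:**
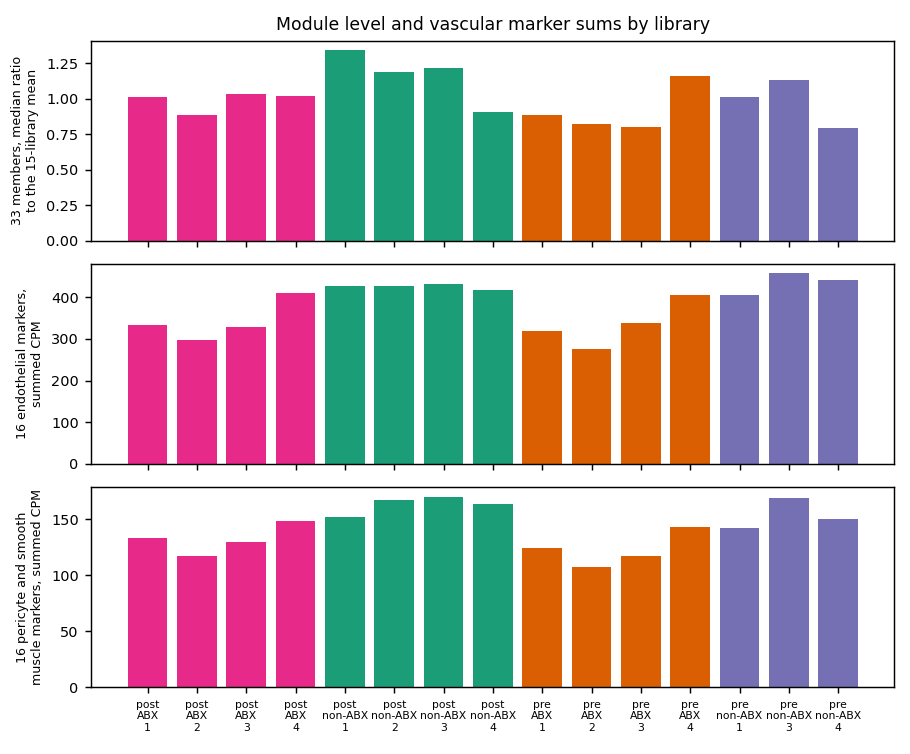
Bars for each of the 15 libraries: median ratio of the 33 members to their 15-library mean (top), summed CPM of 16 brain endothelial markers (middle) and of 16 pericyte and smooth muscle markers (bottom), all axes from 0. Endothelial sums are 298.6 to 411.4 CPM in post ABX and 417.8 to 432.6 CPM in post non-ABX libraries, while the members' ratios overlap (0.884 to 1.03 and 0.907 to 1.34).

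Comparing post with pre libraries within each treatment asks how the genes differed with extinction. In non-ABX mice 29 of 33 members were positive after extinction (49.1% of all genes), with a member median of 0.19 and an all-gene median of -0.003. Here edgeR called 0 members (0% of all genes), 3 were higher at an unadjusted p under 0.05 (9.09%, against 1.51%) and 0 lower (against 3.43%). DESeq2 called 0 members (0.1% of all genes), and voom called 9 (27.3%, against 19% of all genes). Post and pre libraries were separate groups of samples, so a difference by stage may also hold any difference in when or how they were taken, which cannot be told apart. The post non-ABX libraries also enter the ABX comparison after extinction and the interaction. Counts by sign in these comparisons are thus not independent.

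Lyve1 (chromosome 7, 110850607 to 110862953), a hyaluronan receptor, had the smallest p. It was at 2.79, 2.51, 3.01 and 2.31 CPM in post non-ABX libraries, against 1.5, 1.32 and 1.46 CPM in pre non-ABX libraries, and was the only member with no overlap (2.33% of all genes lay wholly above and 3.57% wholly below). Its log2 change was 0.89 (SE 0.22; edgeR, adjusted p = 0.575). In ABX mice Lyve1 was at 2.06, 2.35, 2.498 and 1.48 CPM in post libraries and 1.53, 1.25, 1.75 and 2.68 CPM in pre libraries, which overlapped, with a log2 change of 0.22 (SE 0.20; edgeR, adjusted p = 0.533). The summed level of 10 border macrophage markers was 21.6 to 27.3 CPM in post non-ABX and 21.1 to 24.9 CPM in pre non-ABX libraries, and 5 of the 10 were positive there, with 0 called. One of them, F13a1, lay wholly above like Lyve1, at 5.57, 4.99, 5.64 and 5.21 CPM in post non-ABX libraries, against 4.46, 3.95 and 4.26 CPM in pre non-ABX libraries, with a log2 change of 0.34 (SE 0.17; edgeR, adjusted p = 0.896). Cd163, a scavenger receptor of these macrophages, had 0.33 (SE 0.14; edgeR, adjusted p = 0.896) there and a stage average of 0.38 (SE 0.10; edgeR, adjusted p = 0.07003), which passed the threshold with the GC trend removed (edgeR adjusted p = 0.0277). Other markers of the list went the other way. Negative values were found for 5 of the 10 in non-ABX mice (lowest -0.52). In the stage average 5 of the 10 were negative too (lowest -0.57), with a median of -0.03. Of 6 lymphatic markers, Ccl21a and Mmrn1 did not exceed 0.170 and 0.0945 CPM in any library, while Prox1 ran at 6.56 to 9.67 CPM, Flt4 at 1.74 to 4.96 CPM, Pdpn at 7.55 to 11.7 CPM and Reln, which neurons also express, at 96.4 to 137.2 CPM. The part of macrophages and of lymphatic cells in the Lyve1 values was not tested.

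Mgp (chromosome 6, 136872435 to 136875823) was at 32.6, 23.3, 34.7 and 21.6 CPM in post non-ABX libraries, against 20.9, 22.7 and 16.6 CPM in pre non-ABX libraries, with a log2 change of 0.48 (SE 0.18; edgeR, adjusted p = 0.896). Post non-ABX replicate 4 lay within the pre non-ABX range and the other post replicates lay above it. In ABX mice it was at 31.3, 21.9, 24.2 and 22.8 CPM in post libraries, against 16.3, 16.2, 16.8 and 23.3 CPM in pre libraries, with a log2 change of 0.47 (SE 0.17; edgeR, adjusted p = 0.221). Pre ABX replicate 4 overlapped the post ABX libraries and the other pre ABX replicates lay below them. Foxd1, a forkhead factor known from stromal progenitors of the mouse kidney, was at 1.49, 1.08, 1.07 and 0.552 CPM in post non-ABX libraries and 0.672, 0.8896 and 0.3497 CPM in pre non-ABX libraries, and the groups overlapped. Its log2 fold change there was 0.71 (SE 0.30; edgeR, adjusted p = 0.896), and in ABX mice, at 0.851, 0.6997, 1.05 and 0.833 CPM in post and 0.686, 0.581, 0.683 and 0.806 CPM in pre libraries, it was 0.32 (SE 0.28; edgeR, adjusted p = 0.517). Ptgds (chromosome 2, 25466709 to 25470110) was at 1396, 1167, 1126 and 693.8 CPM in post non-ABX libraries and 839.8, 990.5 and 593.3 CPM in pre non-ABX libraries, which overlapped, with a log2 change of 0.44 (SE 0.21; edgeR, adjusted p = 0.896). In ABX mice Ptgds was at 850.2, 753.2, 985.9 and 1015 CPM in post and 729.2, 664.7, 689.4 and 1004 CPM in pre libraries, with a log2 change of 0.22 (SE 0.19; edgeR, adjusted p = 0.507). The summed level of 10 oligodendrocyte markers, a cell type that also makes Ptgds, was 1994 to 2224 CPM in post non-ABX and 1999 to 2334 CPM in pre non-ABX libraries. The choroid plexus markers, whose tissue makes Ptgds too, summed to 20.97 CPM in post ABX replicate 1 and to 6.15 to 9.49 CPM in the other 14 libraries. In post ABX replicate 1 the single gene Ttr made up 11.3 CPM of that sum. The part of either cell type in the Ptgds values was not tested.

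In ABX mice 17 of 33 members were positive after extinction (51% of all genes), with a median of 0.05. edgeR called 0 members (0.0951% of all genes), 6 were higher at an unadjusted p under 0.05 (18.2%, against 7.67%) and 0 lower (against 8.97%). Every member's groups overlapped, where 2.69% of all genes lay wholly above and 2.78% wholly below. DESeq2 and voom each called Col6a1 alone, where they called 1.83% and 2.77% of all genes. The 6 were collagen genes apart from Mgp and Twist1. Col6a1 was at 43.8, 51.3, 58.3 and 68.5 CPM in post ABX libraries, against 28.6, 46.7, 29.1 and 39.2 CPM in pre ABX libraries. Pre ABX replicate 2 overlapped the post libraries, and the log2 change was 0.63 (SE 0.18; edgeR, adjusted p = 0.154). Col6a2, whose gene lies 85.2 kb from Col6a1, was at 22.5, 21.4, 28.9 and 31.02 CPM in post ABX libraries, against 16.3, 20.9, 14.96 and 24.01 CPM in pre ABX libraries, with overlap through pre ABX replicate 4 and a log2 change of 0.45 (SE 0.17; edgeR, adjusted p = 0.231). In non-ABX mice Col6a1 was at 33.6, 37.4, 38.02 and 51.4 CPM in post and 37.2, 49.5 and 36.6 CPM in pre libraries, with a log2 change of -0.04 (SE 0.19; edgeR, adjusted p = 0.965). Col6a2 was at 25.6, 21.99, 23.5 and 24.03 CPM in post non-ABX and 18.5, 26.5 and 16.3 CPM in pre non-ABX libraries, with a log2 change of 0.22 (SE 0.18; edgeR, adjusted p = 0.896). The 4 proteoglycan genes and the 3 transporter genes (Slc6a13, Slc47a1 and Slc22a6) all had negative values in ABX mice, with medians of -0.10 and -0.15.

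**Figure D5:**
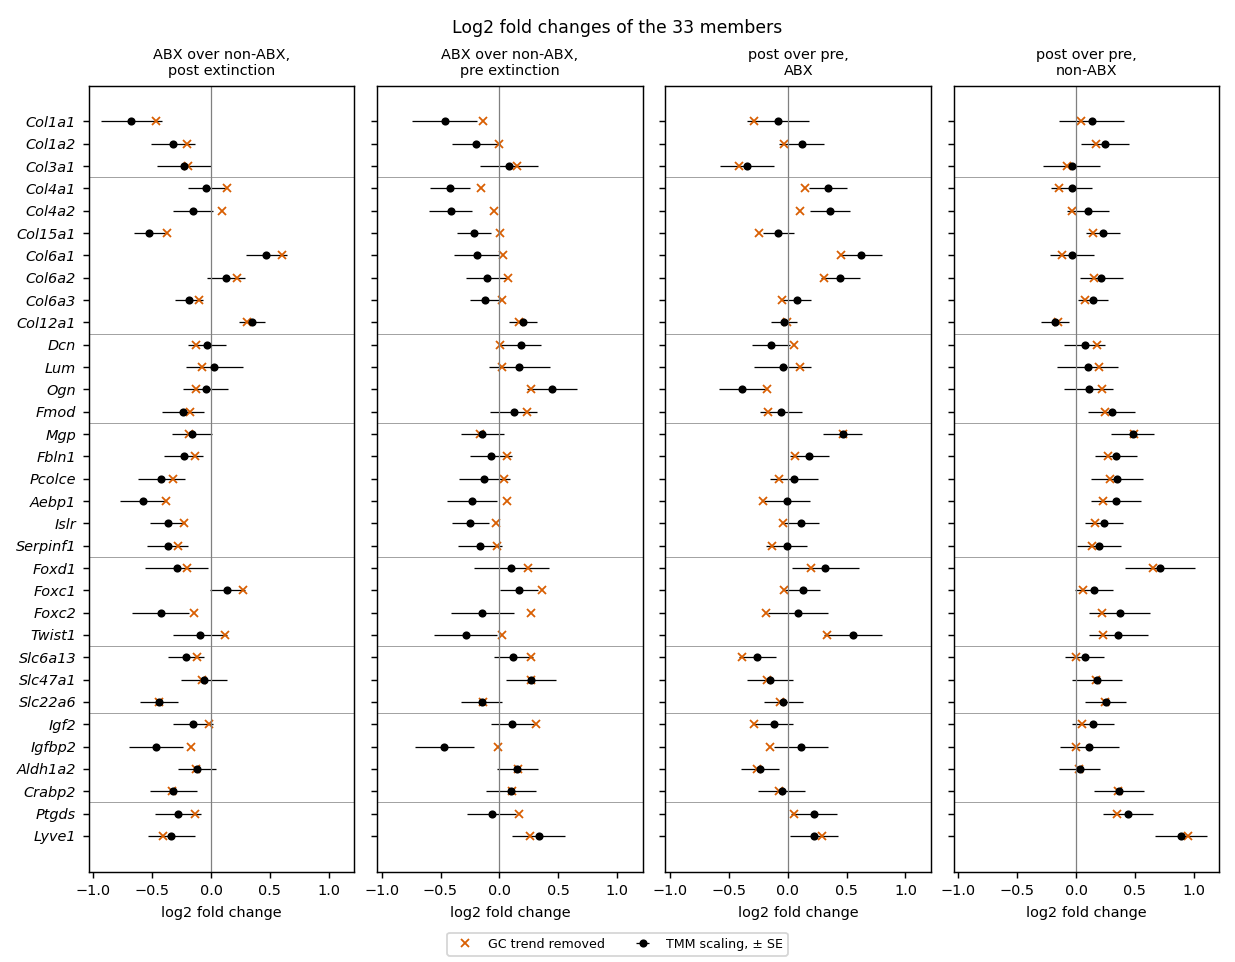
Log2 fold changes of the 33 members (rows, by role) for ABX over non-ABX post and pre extinction and for post over pre in ABX and in non-ABX mice; circles with bars are edgeR values ± SE, crosses the values with the GC trend removed. In the panel for post extinction 28 of 33 circles lie left of 0, and in the panel for post over pre in non-ABX mice 29 of 33 lie right of 0. Both panels use the same post non-ABX libraries.

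Positive values after extinction in both ABX and non-ABX mice were found in 15 of 33 members, against 2 (Col12a1 and Col3a1) negative in both. The matching share of all genes was not computed here either, so these counts cannot be set against a background. Averaged over the arms, 27 of 33 members were positive (50.2% of all genes), with a median of 0.14, or 0.04 with the GC trend removed. edgeR called 0 members (0.963% of all genes), while 8 were higher at an unadjusted p under 0.05 (24.2%, against 8.62%) and 0 lower (against 11.8%). Mgp and Lyve1 came nearest, with averaged log2 changes of 0.47 (SE 0.12; edgeR, adjusted p = 0.0776) and 0.56 (SE 0.15; edgeR, adjusted p = 0.0878). DESeq2 called these 2 (6.06%, against 4.49% of all genes), as did edgeR with the GC trend removed (against 2.23%), with adjusted p = 0.0444 for Mgp and 0.0440 for Lyve1. The count under voom was 13 members (39.4%), where it called 37.8% of all genes, so the members' share was near the background. Without pre non-ABX replicate 3 edgeR called 4 members (12.1%, against 13.3% of all genes), without pre ABX replicate 4 it called 2 (6.06%, against 4.45%) and without post non-ABX replicate 4 it called 1 (3.03%, against 1.6%).

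The interaction asks whether the ABX difference after extinction differed from that before it. It was negative in 27 of 33 members (46.3% of all genes), with a member median of -0.21. edgeR called 0 members, as it did of all genes (0%), DESeq2 (0.0178%) and voom (0%) also called 0, and 1 member was higher and 1 lower at an unadjusted p under 0.05 (3.03% each, against 1.29% and 0.767%). Those were Col6a1, at 0.66 (SE 0.26; edgeR, adjusted p = 0.9999), and Lyve1, at -0.67 (SE 0.30; edgeR, adjusted p = 0.9999). A stage difference of any member in non-ABX mice was thus not shown to differ from that in ABX mice.

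Of 4 pairs of partner genes, Col4a1 and Col4a2 had the narrowest range of proportions. The ratio of Col4a1 to Col4a2 per kilobase was 0.699 to 0.788 in post ABX, 0.665 to 0.726 in post non-ABX, 0.712 to 0.779 in pre ABX and 0.717 to 0.817 in pre non-ABX libraries. That of Col1a1 to Col1a2, which form collagen I, was lower throughout: 0.208 to 0.290 in post ABX, 0.289 to 0.338 in post non-ABX, 0.231 to 0.344 in pre ABX and 0.282 to 0.380 in pre non-ABX libraries. The Col6a1 to Col6a2 ratio ran from 1.58 to 2.87 over the 15 libraries, and that of the neighbouring proteoglycan genes Dcn and Lum, 47.3 kb apart, from 2.21 to 3.68. The library kit does not mark strand, and Col4a1 and Col4a2 share 22 exon bases.

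Genes that work with the members were read from lists chosen by role. Of 25 other proteoglycan and glycoprotein genes tested, 16 had negative averaged ABX values (47.5% of all genes). By the edgeR call 1 fell and 1 rose, where 0.624% of all genes were called in either direction. Calls in this list numbered 5 under DESeq2 (13% of all genes), 4 under voom (5.36%) and 2 with the GC trend removed (4.2%). Fn1, the gene of fibronectin, fell: it was at 89.9, 82.9, 111.7 and 93.7 CPM in post ABX libraries, against 140.6, 138.0, 153.3 and 127.0 CPM in post non-ABX libraries. Before extinction it was at 96.8, 89.03, 90.5 and 130.4 CPM in ABX libraries and 125.4, 132.5 and 115.7 CPM in non-ABX libraries, where pre ABX replicate 4 overlapped, and the averaged log2 change was -0.43 (SE 0.08; edgeR, adjusted p = 0.0372). After extinction all ABX libraries lay below the non-ABX ones for Fn1, as did those of 6.36% of all genes. With 1 library left out the averaged adjusted p ran from 0.00154 to 0.132, and the call was kept only without pre ABX replicate 4, pre non-ABX replicate 4, post ABX replicate 3 or post non-ABX replicate 4. Epyc, a leucine-rich proteoglycan gene beside Dcn and Lum in role, rose: it was at 1.38, 1.69, 1.11 and 1.31 CPM in post ABX libraries, against 0.868, 0.927, 1.01 and 0.868 CPM in post non-ABX libraries. Before extinction Epyc was at 1.42, 1.18, 1.41 and 1.29 CPM in ABX libraries, against 0.9999, 0.8501 and 1.11 CPM in non-ABX libraries, with no overlap at either stage. Of all genes, 4.74% lay wholly above in ABX libraries after extinction and 3.62% before. The averaged log2 change of Epyc was 0.50 (SE 0.11; edgeR, adjusted p = 0.0475), with an edgeR adjusted p of 0.0235 to 0.163 when any 1 library was left out, and was kept only without pre ABX replicate 4, pre non-ABX replicate 4 or post ABX replicate 3.

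Of 15 basement membrane genes 14 were negative in the ABX average (median -0.21) and edgeR called 0, with Hspg2, the gene of perlecan, at -0.86 (SE 0.20; edgeR, adjusted p = 0.0552) and Nid2, the gene of nidogen 2, at -0.37 (SE 0.09; edgeR, adjusted p = 0.0616). At an unadjusted p under 0.05, 9 of the 15 were lower (60%, against 17.8% of all genes) and 1 higher (6.67%, against 12.8%). Calls numbered 3 with the GC trend removed (4.2% of all genes), 7 under DESeq2 (13%) and 8 under voom (5.36%). Of 27 collagen-modifying enzymes and chaperones 18 were negative and 0 called, with Serpinh1, a collagen chaperone, at -0.63 (SE 0.15; edgeR, adjusted p = 0.0586) and the lysyl oxidase family gene Loxl1 at -0.67 (SE 0.16; edgeR, adjusted p = 0.0609). Of 29 other collagen chains 23 were negative and 0 called, with Col11a2 at -0.71 (SE 0.22; edgeR, adjusted p = 0.0726) and Col9a3 at -0.48 (SE 0.15; edgeR, adjusted p = 0.0732). In the retinoic acid list 11 of 15 were negative and in the insulin-like growth factor list 6 of 11, with 0 called in each. Their smallest p values belonged to Stra6, a receptor for retinol uptake, and Rxrb, at -0.58 (SE 0.15; edgeR, adjusted p = 0.0629) and -0.28 (SE 0.10; edgeR, adjusted p = 0.0953), and to Igfbp7 and Igfbp6, at -0.30 (SE 0.08; edgeR, adjusted p = 0.0649) and -0.46 (SE 0.15; edgeR, adjusted p = 0.0828). DESeq2 called 3 collagen-modifying genes, 3 other collagen chains, 1 retinoic acid gene and 2 insulin-like growth factor genes. In these lists, in the same order, voom called 2, 0, 2 and 1. With the GC trend removed edgeR called 1, 0, 0 and 0.

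In the stage average, Fbn2 (a fibrillin of microfibrils) rose and Lama3 (a laminin alpha chain) fell, and 0 genes of the other 4 lists passed. Of all genes, edgeR called 0.963% there in either direction. Fbn2 was at 3.34, 4.69, 5.04 and 4.19 CPM in post ABX libraries, against 2.74, 3.28, 2.796 and 2.96 CPM in pre ABX libraries, and at 3.83, 4.65, 4.44 and 4.69 CPM in post non-ABX libraries, against 3.69, 3.22 and 3.56 CPM in pre non-ABX libraries. Its averaged log2 change was 0.44 (SE 0.09; edgeR, adjusted p = 0.0322). Lama3 was at 13.5, 15.1, 14.2 and 12.2 CPM in post ABX libraries, against 19.5, 16.2, 16.4 and 16.7 CPM in pre ABX libraries, and at 12.8, 14.5, 14.3 and 13.99 CPM in post non-ABX libraries, against 20.5, 17.1 and 17.3 CPM in pre non-ABX libraries. Its averaged log2 change was -0.36 (SE 0.06; edgeR, adjusted p = 0.0212). Post and pre libraries overlapped for Fbn2 through post ABX replicate 1, whose level lay within the pre non-ABX range, and did not overlap for Lama3. With any 1 library left out the adjusted p ran from 0.0127 to 0.0894 for Fbn2, whose call was lost in 8 of 15 fits, and from 0.0144 to 0.083 for Lama3. The Lama3 call was lost without pre non-ABX replicate 1 or 4 or post non-ABX replicate 1 or 3. The fits that lost the Fbn2 call left out pre ABX replicate 1 or 3, pre non-ABX replicate 1 or 4, post ABX replicate 3 or 4, or post non-ABX replicate 2 or 3. Of the other collagen chains 22 of 29 had positive stage averages and 0 were called, with Col5a3 at 0.44 (SE 0.14; edgeR, adjusted p = 0.124) and Col16a1 at 0.34 (SE 0.13; edgeR, adjusted p = 0.183). Positive stage averages were found in 14 of 25 other proteoglycan and glycoprotein genes, where Tnc, the gene of tenascin C, had -0.35 (SE 0.12; edgeR, adjusted p = 0.147). They were found in 9 of 15 basement membrane genes, where Lamb1 had 0.20 (SE 0.06; edgeR, adjusted p = 0.118), and in 15 of 27 collagen-modifying genes. There Bmp1, a procollagen C-proteinase, had 0.38 (SE 0.09; edgeR, adjusted p = 0.06202) and Colgalt1, a collagen galactosyltransferase, 0.15 (SE 0.04; edgeR, adjusted p = 0.0941). In the retinoic acid list 9 of 15 were positive, with Rxra at 0.26 (SE 0.10; edgeR, adjusted p = 0.185) and Aldh1a3 at -0.20 (SE 0.08; edgeR, adjusted p = 0.2097). In the insulin-like growth factor list 6 of 11 were positive, with Igf1r at 0.23 (SE 0.06; edgeR, adjusted p = 0.06203) and Igf1 at -0.26 (SE 0.08; edgeR, adjusted p = 0.117).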

How the data were processed

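The authors deposited a table of raw counts per Entrez gene identifier for all 15 libraries of dissected mPFC, and every per-sample column was used. Per the labels' protocols, the SMARTer Ultra Low Input kit V4 was used, which does not mark strand. The submitters' processing notes name the tools CASAVA 1.8.2 and STAR 2.3.0 and the build mm10; for the counting program and the annotation, not given in the sources used here, no assumption was made. A symbol was found for 25275 of 27179 identifiers (99.7% of counts). Symbols and gene coordinates came from the RefSeq table, and transcripts and exons from GENCODE for GRCm38.

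The test was edgeR 4.0.16 (R 4.3.3): filterByExpr (minimum count 10, minimum total 15) kept 16816 genes, TMM factors were 0.969 to 1.03, and 1 quasi-likelihood fit to the 15 libraries had a mean for each of the 4 groups. Tests were two-sided, and calls were made under 0.05 after Benjamini-Hochberg adjustment over all 16816 genes. Averaged comparisons weigh both levels of the other factor equally. SE is the log2 change divided by the root of the F statistic. The biological coefficient of variation was 0.112, which at these depths exceeded counting error in all but the lowest members. The p-values measure the spread between libraries, which may be technical. The pipeline was tested on simulated data.

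The alternatives tried were DESeq2 1.42.0, limma's voom (3.58.1) with sample quality weights, no filter or one at a mean of 1 CPM, RLE scaling, the replicate number as a block, the compared groups alone, each library left out in turn, and a GC correction (a spline of 5 degrees of freedom per library on GC content of the longest transcript, known for 91.2% of tested genes and all members).

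Values in every library are given for members that the edgeR test called in any comparison (there were 0), for the 3 members of smallest unadjusted p in each pairwise comparison and for examples of each role; of other lists, called genes and the 2 of smallest p are named. Markers of other cell types (Pdgfra, Dpt, Dpep1, Camk2a, Slc17a7, F13a1, Cd163 and the lymphatic list) were added, some after their values were seen. The members, lists and rules were chosen with earlier results of these data known.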

Additional observations from a re-analysis of the deposited data

Results flagged for a closer look

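In the 3 groups of 4 libraries, each member's highest and lowest library was compared with the others of its group by Dixon's ratio, for 99 groups of values in all. In 5 of them 1 library stood apart beyond Dixon's 95% critical value; chance alone flags about 1 group in 20. Col1a1 was at 6.59 CPM in post non-ABX replicate 4, where the other libraries of the group were at 10.5 to 10.6 CPM. Serpinf1 was at 9.15 CPM in the same library, and at 13.8 to 14.7 CPM in the others. In pre ABX replicate 4, Col1a2 was at 27.7 CPM, with 17.2 to 17.7 CPM in the other libraries of its group, and Mgp was at 23.3 CPM, with 16.2 to 16.8 CPM in the others. Col12a1 was at 55.0 CPM in pre ABX replicate 2, with 40.0 to 41.5 CPM in the other pre ABX libraries. Why these libraries stood apart was not tested.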

How the results depend on the processing

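The main test called 0 members in each of 7 comparisons. After extinction, ABX against non-ABX gave 1 call under DESeq2, 1 under voom and 2 (Col6a1 and Col15a1, where 2.72% of all genes were called) with the replicate number as a block together with the GC correction. Post against pre gave 9 calls under voom in non-ABX mice, and 1 under DESeq2 and 1 under voom in ABX mice. The ABX average gave 6 calls under DESeq2, 3 under voom and 2 under the block with GC correction, and the stage average gave 2, 13 and 2, and 2 under GC correction alone. With each library left out in turn, calls ran from 0 to 7 in the ABX average and from 0 to 4 in the stage average, and stayed at 0 in the other 5 comparisons. Without pre ABX replicate 4 they were 7 and 2, without pre non-ABX replicate 4 they were 5 in the ABX average, without pre non-ABX replicate 3 they were 4 and without post non-ABX replicate 4 they were 1 in the stage average. Other settings (RLE scaling, no filter, at least 1 CPM, the compared groups alone) gave 0 calls. Over all genes the ABX average had 105 calls in edgeR, 1965 in DESeq2, 902 in voom, 644 with GC correction, 666 with the replicate block and 1741 with both, and the stage average had 162, 697, 6358, 342, 96 and 569. The cause was not tested.

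Medians moved by less than the 0.22 (log2) SD between libraries. That SD was near or above the size of most of the medians, so this measure cannot show that they held. Under GC correction the median of the ABX average went from -0.15 to -0.03 and that of the stage average from 0.14 to 0.04. The median of ABX before extinction ran from -0.23 to 0.08 with a library left out and was 0.06 under GC correction. That of post against pre in ABX mice ran from -0.03 to 0.16 with a library left out. Post against pre in ABX mice also gave -0.01 at a mean of at least 1 CPM and -0.05 under GC correction. Of 37 named values, Col4a2 in the ABX average took the opposite sign under GC correction (0.022) and under the block with GC correction (0.012). Of 311 results under other settings 277 kept their sign and their side of the threshold, 32 passed it and those 2 changed sign; of 555 with a library left out 536 kept both and 19 passed it.

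Replicate numbers are not stated to mark a shared animal or day. Deviations of same-numbered libraries correlated at -0.75 to 0.60 over 21 pairs (median 0.02, as for libraries of other numbers), and 8 of 15 libraries correlated best with their own number. The count that chance alone would give was not computed, and whether same-numbered libraries share an animal or day was not tested. With the replicate block alone 0 members were called in all 7 comparisons. Over all genes, edgeR calls went with the block from 105 to 666 in the ABX average and from 162 to 96 in the stage average. Twist1 and Foxd1, with the fewest counts, are limited most by depth.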

Other observations

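Traces of other tissue stood in 1 library. Post ABX replicate 1 had 11.3 CPM of Ttr, a transthyretin gene of the choroid plexus, where the other 14 libraries had at most 0.271 CPM, and its summed blood cell markers reached 12.3 CPM, against at most 3.14 CPM elsewhere. In that library Mgp, Slc47a1 and Foxc1 were highest of the post ABX group, at 31.3, 15.6 and 5.34 CPM. These genes were picked after their values were seen, and the part of other tissue in them was not tested. Of all 33 members, 11 were highest of the post ABX group in replicate 1, 12 in replicate 3 and 10 in replicate 4. In replicate 1, 6 members were lowest of the group. Its median member ratio was 1.01, against 0.884, 1.03 and 1.02 in post ABX replicates 2 to 4.

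Markers of other cortical cells were of mixed sign in the ABX average, where 0 were called: 5 of 10 oligodendrocyte markers, 5 of 10 neuron markers, 6 of 8 astrocyte markers, 7 of 10 border macrophage markers and 5 of 9 choroid plexus markers tested were positive. In the stage average Aqp4, the water channel of astrocyte endfeet at the vessel wall, was the only gene of these lists that edgeR called with TMM scaling; with the GC trend removed, Cd163 of the border macrophage list was called (edgeR adjusted p = 0.0277). Aqp4 fell, with a log2 change of -0.31 (edgeR adjusted p = 0.0442), and the call was lost with the GC trend removed (edgeR adjusted p = 0.0831) and in 12 of 15 fits with 1 library left out. It was kept only without pre ABX replicate 4, pre non-ABX replicate 3 or post ABX replicate 1.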
